A study of Mus musculus with 6 samples.

Results

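In a read-count table of mouse embryonic stem cells, 594 consecutive transcript identifiers formed the single long stretch whose counts were shifted upward in cells lacking the histone methyltransferase G9a. The stretch takes up rows 36088 to 36681 of the 55419 rows, in the order of the table, and its members are referred to here by their position in it, 1 to 594. It was found from the difference between the genotypes itself, so every comparison of knockout with wild type below describes how the stretch was chosen and how even it is, and tests nothing about it. The comparison set consists of the 49346 identifiers outside this stretch and outside 3 long stretches of the same table whose counts were shifted downward, and is called the background.

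The cells were of the TT2 line, mouse embryonic stem cells from a C57BL/6 female and a CBA male, grown in serum medium with the cytokine LIF. One group was wild-type TT2 and the other was TT2 G9a-/-, with both alleles of G9a (gene Ehmt2) lost, and 3 poly-A RNA-seq libraries were made from each. The labels name neither separate cultures nor the number of knockout clones, so the spread between libraries can be technical and a knockout value can belong to 1 clone. G9a works in a complex with the related enzyme GLP and places mono- and dimethyl marks on lysine 9 of histone H3, which are associated with repressed chromatin. Polycomb repressive complex 2, the other subject of the series, methylates lysine 27 of the same histone and holds many developmental genes silent in embryonic stem cells. A UCSC identifier names a transcript, so one gene can hold several of them.

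The libraries held 5738463 to 9717847 counts. The table gives no gene names beside its identifiers, and 0 of the 55419 identifiers matched the name tables used here. For that reason 2 identifiers called higher and 2 called lower are named, the other members are given by position, and no gene function, chromosome position or promoter sequence is given. Stem cell markers and Ehmt2 itself were not analysed here for the same reason.

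Most members gave no reads in these cells. Of the 594, 395 (66.5%) had no read in any library, against 49.9% of the background identifiers. A further 104 had some reads but too few to be tested, and 95 (16.0%) were tested, against 22.4% of the background. The tested members had a median wild-type level of 7.65 CPM (counts per 1e+06 counts of the scaled library total) with an interquartile range of 2.33 to 67.4 CPM. The background identifiers that were tested had a median of 7.62 CPM and an interquartile range of 2.32 to 48.1 CPM. The stretch thus held a larger share of silent identifiers, while the wild-type levels of its tested members had nearly the same median as elsewhere.

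Members called higher in knockout were a narrow majority of those tested. By the edgeR quasi-likelihood test fitted over the whole table (Benjamini-Hochberg adjusted p under 0.05), 50 of the 95 were called higher, 11 were called lower and 34 were not called. In the background 23.3% of 11047 tested identifiers were called higher and 14.0% lower. For 56 members every knockout library exceeded every wild-type library (background 27.7%), for 13 every knockout library was the lower (background 18.9%), and for the remaining 26 the genotypes overlapped. The log2 fold change, knockout over wild type, was above 0 for 66 members (background 52.6%). Because the stretch was chosen on this contrast, these shares are not evidence for it.

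The shift was neither uniform nor shared by all members. The median log2 fold change of the tested members was 0.43, against 0.03 in the background, a difference of 0.40. The lower quartile of the members stood only 0.16 above that of the background, while the upper quartile stood 0.63 above it. The interquartile range of log2 fold changes was accordingly 1.03 in the stretch and 0.56 in the background. In the 3 lower stretches, listed in table order, it was 0.57, 0.56 and 0.45. In those stretches both quartiles had moved by similar amounts, by -0.40 and -0.39 in the first, by -0.50 and -0.50 in the short one and by -0.39 and -0.50 in the last. The difference in form between the higher and the lower stretches was not tested.

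**Figure D1:**
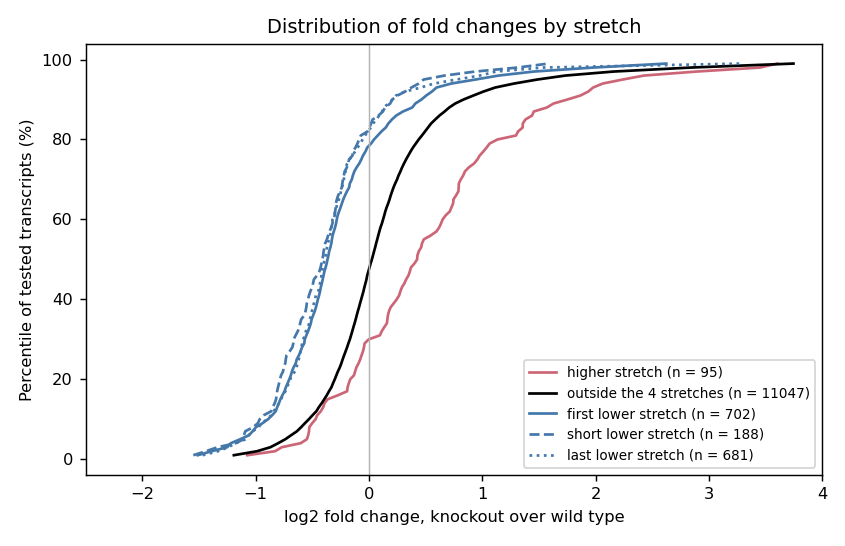
Cumulative distribution of log2 fold changes (x axis, knockout over wild type) by percentile of tested transcripts (y axis, %), one line per stretch and one for the identifiers outside all 4. The line of the higher stretch runs close to the background at its lower end. It lies far to the right at percentile 75 (0.96 against 0.33) but not at percentile 99 (3.61 against 3.75). The 3 lower stretches are displaced along most of their length.

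Among the 50 members called higher the changes ranged widely. A log2 fold change under 0.5 was measured for 11, one of 0.5 to under 1 for 17, one of 1 to under 2 for 16 and one of 2 or more for 6. The median of the 50 was 0.93, against 0.66 for background identifiers called higher. At a log2 fold change of 1 or more stood 22 of the 95 tested members (background 7.90%). The 34 members not called were split into 16 above 0 and 18 below, with a median of -0.03 and a range of -0.80 to 0.74. In RNA from whole cultures, a change in the share of cells that hold a transcript and a change per cell cannot be told apart.

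The largest rise under the naming rule belonged to uc009doq.1, at position 21. It had 154, 83 and 128 reads in wild-type replicates 1 to 3 and 1314, 1273 and 971 in knockout replicates 1 to 3. Every knockout library lay far above every wild-type library. The level went from 14.0 ± 1.45 CPM to 153 ± 13.4 CPM (SD, n = 3 each). This is a log2 fold change of 3.43 (standard error 0.09), or 10.8-fold. The authors' deposited table lists 3.40 for it.

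The next, uc009dwb.1 at position 210, had 62, 50 and 53 reads in the wild-type libraries and 391, 372 and 266 in the knockout libraries. Again the genotypes were fully separated, with no single library standing apart. Wild-type cells had 6.55 ± 1.15 CPM of it and knockout cells 44.1 ± 2.24 CPM (SD, n = 3 each). The log2 fold change was 2.77 (standard error 0.12). It is the last tested member before a long run of silent identifiers, described below.

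Both named decreases were smaller and less secure. uc009dsl.2, at position 117, had 39, 40 and 46 reads in wild type and 27, 28 and 13 in knockout. In CPM its wild-type libraries stood at 3.97, 6.25 and 4.82 and its knockout libraries at 3.07, 3.14 and 2.26, so the groups did not overlap but came close. The log2 fold change was -0.76 (standard error 0.24), and the call was lost without wild-type replicate 2 (edgeR adjusted p = 0.0684). uc009ekm.2, at position 574, had 66, 41 and 78 wild-type reads and 40, 46 and 29 knockout reads, or 7.09 ± 0.942 CPM against 4.91 ± 0.326 CPM (SD, n = 3 each). The log2 fold change was -0.54 (standard error 0.18), and the call was lost without wild-type replicate 3 (edgeR adjusted p = 0.115) and without knockout replicate 1 (edgeR adjusted p = 0.0678). With DESeq2 in place of edgeR neither was called (adjusted p = 0.122 for uc009dsl.2 and 0.213 for uc009ekm.2). The authors' deposited adjusted p is 0.0361 for uc009dsl.2 and 0.0504 for uc009ekm.2.

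**Figure D2:**
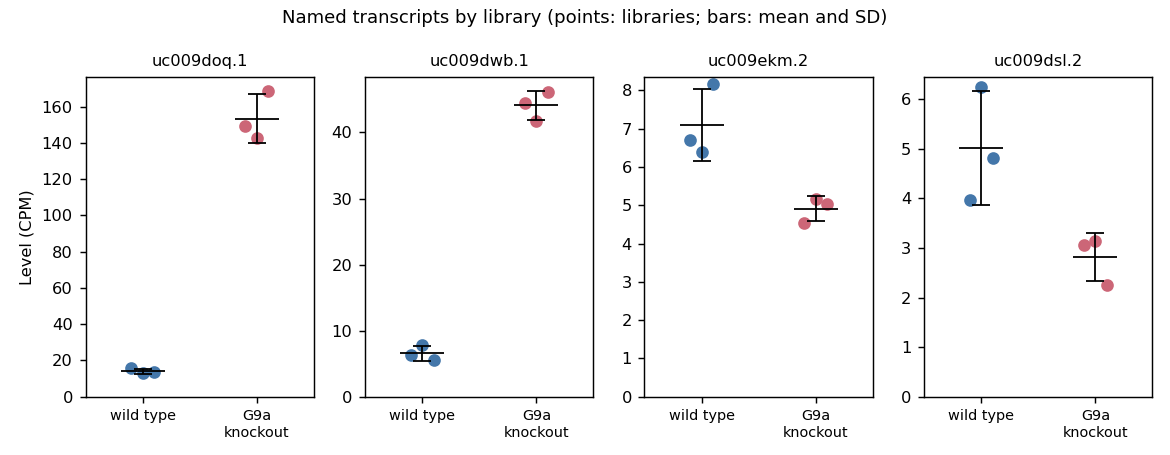
Level in CPM (y axis, from 0, scaled per panel) of the 4 named transcripts in each library, with mean and SD for wild type and G9a knockout (n = 3 each). The knockout libraries of uc009doq.1 (143 to 168 CPM) and uc009dwb.1 (41.7 to 46.2 CPM) lie far above the wild-type libraries, while the libraries of the 2 lower transcripts lie close together.

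The members singled out by position in the rest of the text were chosen after their values were seen. Of the 6 members called higher at a log2 fold change of 2 or more, 3 had a mean wild-type level under 1 CPM. They lay at positions 10 (0.569 CPM), 175 (0.260 CPM) and 463 (0.0678 CPM), and passed the low-count filter only through their knockout libraries. The other 3, at positions 21, 210 and 422, started from 14.0, 6.55 and 4.33 CPM. The member at position 463 had 2 wild-type reads, both in replicate 1, and 15, 12 and 13 knockout reads. Knockout exceeded wild type 22.0-fold there, with a 95% exact binomial counting interval of 5.70 to 188. It was the only member whose wild-type reads summed to 3 or fewer while each knockout library had 10 or more, a pattern that 52 identifiers of the table showed.

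A single member carried much of the gain in reads. The stretch as a whole summed to 10767 ± 123 CPM in the wild-type and 15733 ± 243 CPM in the knockout libraries (SD, n = 3 each), a ratio of 1.46. The member at position 408 held 22.1% of all reads of the stretch and 39.4% of the net gain. It had 19190, 12879 and 18458 reads in wild type and 34331, 36145 and 21955 in knockout. Its level almost doubled, from 1965 ± 40.9 CPM to 3920 ± 123 CPM (SD, n = 3 each). The log2 fold change was 0.997 (standard error 0.04). Without it the summed ratio was 1.34.

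Of the 20 members with the most reads, position 165 alone had a larger log2 fold change than position 408. The members at positions 89, 145 and 151, next in read number, had log2 fold changes of 0.43, 0.23 and 0.43. Position 165 went from 120 ± 2.93 CPM to 446 ± 26.4 CPM (log2 fold change 1.90), and position 118 went from 342 ± 12.7 CPM to 662 ± 29.2 CPM (SD, n = 3 each). Among these 20, which held 90.9% of the reads of the stretch, 13 were called higher and 4 lower, and 3 were not called. All 20 stood above 50 CPM, where 33.0% of tested background identifiers were called higher and 21.8% lower. Gains added up to 5161 CPM over all members and losses to 195 CPM.

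All 3 libraries of a genotype carried the difference. The stretch took 1.09%, 1.08% and 1.06% of the counts of wild-type replicates 1 to 3, and 1.56% of the counts of every knockout replicate. Without the 3 members that held the most counts these shares were 0.674% ± 0.00923 for wild type and 0.916% ± 0.0136 for knockout (SD, n = 3 each). The median deviation of the tested members from their own mean over the 6 libraries was -0.27, -0.18 and -0.16 in wild-type replicates 1 to 3 and 0.20, 0.21 and 0.22 in knockout replicates 1 to 3 (log2 CPM). Background identifiers gave -0.02 to -0.01 in wild type and 0.03 to 0.04 in knockout. In a wild-type library 25 to 30 of the 95 members lay above their own mean, and in a knockout library 66 to 70. Wild-type replicate 1 deviated most, and the difference of 0.40 became 0.33 without it.

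**Figure D3:**
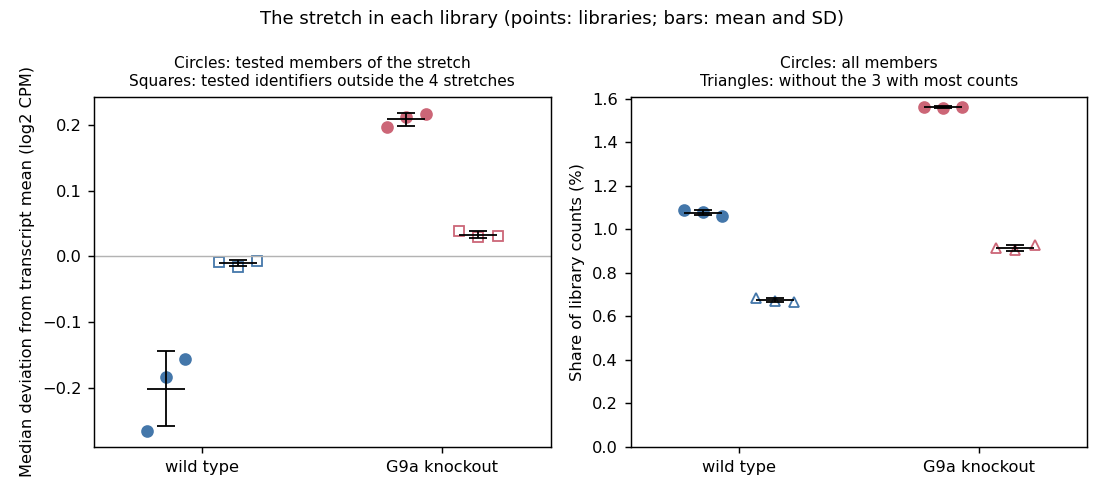
Left, median deviation from the transcript mean (log2 CPM) of tested members (circles) and of background identifiers (squares) in each library. Right, share of library counts (%) in all members (circles) and without the 3 members that hold the most counts (triangles). Bars are mean and SD of 3 libraries, and in both panels the members' values of the 2 genotypes do not overlap.

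The spread between libraries of one genotype was not used directly to choose the stretch. For members at 8 CPM or more the median SD of log2 CPM was 0.06 in both wild type and knockout, against 0.07 and 0.09 for background identifiers at that level. Over all tested members the wild-type value was 0.15 and the knockout value 0.12, against 0.14 and 0.16 for all tested background identifiers. The SD was smaller at the higher level, and the stretch was chosen for higher knockout counts. The knockout SD is therefore not free of that choice.

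The shift varied along the stretch. Divided into 6 blocks of 99 rows, it had median log2 fold changes of 0.43 and 0.34 in blocks 1 and 2, with 31 and 32 tested members. In block 1, 16 were called higher and 2 lower, and in block 2, 15 higher and 4 lower. The background shares of tested identifiers were 23.3% higher and 14.0% lower. Blocks 3 and 4 were nearly silent, with 90 and 84 of their 99 rows lacking any read and 3 tested members each.

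Block 5 stood highest among the blocks with more than 3 tested members. Of its 13 tested members 10 were called higher (background 23.3%) and 3 were not called. A log2 fold change above 0 was measured for 12 (background 52.6%), and the median was 0.90. Its summed level went from 2328 ± 38.6 CPM to 4573 ± 111 CPM (SD, n = 3 each), most of it from position 408. Block 6, with 13 tested members, had a median of -0.04, with 6 called higher (background 23.3%) and 4 lower (background 14.0%). Over its 9 members at 8 CPM or more the median was 0.28, the same as over the 16 such members of block 1. The 99 rows after the stretch had a median of 0.03 over 16 tested identifiers, of which 4 were called higher and 1 lower. The 99 rows before it had a median of 0.21 over 23, which lies between the background and block 1. Of these 23, 9 were called higher and 3 lower.

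**Figure D4:**
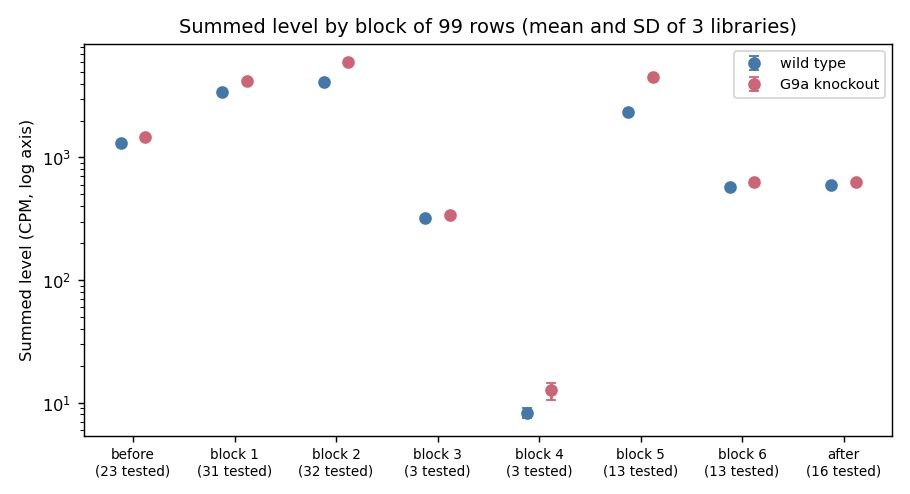
Summed level (y axis, CPM on a log axis) in 6 blocks of 99 rows and in the 99 rows on either side, mean and SD of 3 libraries per genotype. Wild type and knockout are farthest apart in block 5 (2328 and 4573 CPM), clearly apart in block 2 (4100 and 5952 CPM) and in the nearly silent block 4 (8.30 and 12.6 CPM), and close together in block 3, in block 6 and after the stretch.

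A run of 169 rows without a tested member, positions 211 to 379, divided the stretch. Of these rows 165 had no read, and the other 4 had 17 reads over the 6 libraries. Before the run, 32 of 66 tested members were called higher and 7 lower, with a median log2 fold change of 0.34. After it, 18 of 29 were called higher and 4 lower, with a median of 0.79. The background shares were 23.3% higher and 14.0% lower. The division was made after the values were seen, and the difference between the sides was not tested.

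Some members of one direction followed each other. The longest run of tested members with a log2 fold change above 0 held 15, from position 144 to 187, of which 11 were called higher, with values of 0.13 to 3.57. The next held 13, from position 210 across the silent rows to 422, of which 11 were called higher, with values of 0.35 to 2.77. Of all tested members 69.5% lay above 0, in a stretch chosen on this contrast, and runs were not counted in the background. Neighbouring transcripts can belong to one gene and share reads, so such runs do not count independent genes. All 95 tested members had different counts, so none was a copy of another.

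**Figure D5:**
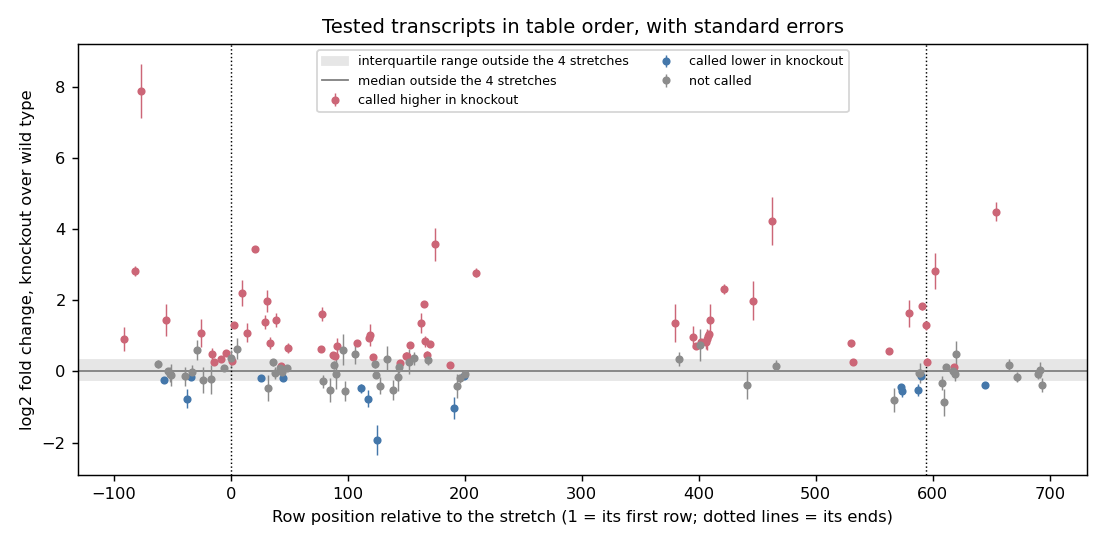
log2 fold change of each tested transcript (y axis, knockout over wild type, with standard error) by row position (x axis), including 99 rows on either side of the stretch. Members called higher lie on both sides of the rows from 211 to 379, which hold no tested member, and reach both ends of the stretch, with members called lower among them.

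The ends of the stretch do not mark a sharp step. The first 3 tested members inside had log2 fold changes of 0.31, 1.31 and 0.64, and the nearest 3 tested identifiers before it had 0.08, 0.52 and 0.37. At the other end the last 3 inside had -0.12, 1.83 and 1.30, and the nearest 3 after it had 0.27, 2.82 and -0.32.

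Members were shifted at low and at high levels. Of the 45 tested members under 8 CPM, 18 were called higher (background at that level 16.2%) and 4 lower (background 8.07%). These members had not entered the search for stretches. They share its libraries and can share genes or reads with members that did, so they are not a separate check. Some, such as those at positions 175 and 463, passed the low-count filter only through their knockout libraries. For these, being tested depended on the higher knockout level. Of the 50 at 8 CPM or more, 32 were called higher (background at that level 30.3%) and 7 lower (background 19.8%), and 38 had a log2 fold change above 0 (background 54.7%). Over the 26 members at 50 CPM or more the median was 0.25, with an interquartile range of -0.07 to 0.76. Background identifiers at that level had a median of 0.04 and an interquartile range of -0.11 to 0.20.

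The 11 members called lower were 11.6% of those tested, against 14.0% of tested background identifiers. They lay at positions 26 to 199 and at positions 573 to 590, with none between. Few members were tested between these, and none at positions 211 to 379, so the gap is not a pattern of decreases. The decreases measured at positions 125 and 191 were the only ones among them beyond a log2 fold change of -1, from 2.83 to 0.662 CPM and from 2.69 to 1.29 CPM. Both rest on few knockout reads, 12, 4 and 1 at position 125 and 13, 12 and 6 at position 191. Their means over all libraries were 1.75 and 1.99 CPM, under the limit of 2 CPM for named transcripts. Those at positions 26, 45, 199 and 590 lay between -0.19 and -0.12 on the log2 scale and belonged to members at 228 to 382 CPM, where the standard errors were near 0.04. The number called lower was 4 with DESeq2 in place of edgeR, and 6 without wild-type replicate 3.

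The authors' deposited table gives an adjusted p for 132 members. With adjusted p under 0.05, 51 of them are higher (background 15.1%) and 8 lower (background 7.35%) in the authors' deposited table. The edgeR fit called 47 of the 51 higher and all 8 lower as well. The median log2 fold change of the tested members in the authors' deposited table is 0.43.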

How the data were processed

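RNA from 3 wild-type and 3 G9a knockout libraries was measured. The deposited table gives raw read counts per UCSC transcript identifier. The submitters' processing notes name the mm9 build, Bowtie 0.12.7, DESeq2 and R 2.12.1, with no roles. The sources used here do not give the counting tool, its use of strand or the handling of multiply aligned reads, so overlapping transcripts can share reads. The authors' deposited log2 fold changes and p-values (adjusted) were used only for comparison. The authors' normalized counts, a score rounded to whole numbers per the file headers and values, were not used.

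Counts were filtered with filterByExpr of edgeR 4.0.16 (R 4.3.3), which kept 12713 identifiers, scaled with TMM factors and compared by the quasi-likelihood test without covariates, adjusted over all identifiers tested. Standard errors come from the F value. Deviations and SDs use log2 CPM with a prior count of 1. The fit was tested on simulated data. Alternatives were other scalings, filters and thresholds, DESeq2 1.42.0, a replicate block and each library left out. Intervals cover counting error only.

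The members, lists and tests were chosen with earlier results of these data known. Named transcripts are the 2 largest changes per direction among members with a mean of at least 2 CPM, adjusted p under 0.05 and no overlap between genotypes. The planned gene lists and cell type markers needed gene names and were not run.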

Additional observations from a re-analysis of the deposited data

How the results depend on the processing

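The difference between the stretch and background medians (0.40) became 0.30 with DESeq2, which has its own low-count filter, and ran from 0.33 to 0.44 with each library left out. Over the members before and after the long silent run, a division chosen after the data were seen, it was 0.31 and 0.76. The number called higher (50) stayed between 43 and 56 in all 14 alternatives. The number called lower (11) became 4 with DESeq2 and 5 at an adjusted p under 0.01 (stricter by construction), and ran from 6 to 12 with each library left out, the 6 without wild-type replicate 3. The shares of library counts, 1.08% in wild type and 1.56% in knockout, fell to 0.674% and 0.916% without the 3 members that held the most counts, by construction. No result changed sign. With DESeq2 the calls of uc009ekm.2 (adjusted p = 0.213) and uc009dsl.2 (adjusted p = 0.122) were lost. Except where stated, the cause was not tested. Same-numbered libraries were treated as unpaired, because the correlations of their deviations were 0.066, 0.088 and 0.025 over all tested identifiers, none above 0.1. Every library did correlate best with the library of the same number. This was seen in the data, while the sample titles give only a replicate number, so whether these libraries were paired cannot be settled. With the number as a block 53 members were called higher and 12 lower, with a difference of 0.40. The low-count filter left out 104 members with a median of 6 reads over all libraries. Without the filter 56 members were called higher and 9 lower.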

Other observations

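Among the 104 members with some reads but too few for the test, which held at most 54 reads each, 63 had the higher mean CPM in knockout and 41 in wild type. Reads came from knockout libraries alone for 23 of them and from wild-type libraries alone for 12. Together they summed to 17.8 CPM for wild type and 24.2 CPM for knockout. These counts and sums were not made for background identifiers with too few reads for the test.

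Adjacent rows did not always move together. Of 36 adjacent pairs of tested members, 8 were called higher in both and 1 lower in both, while 2 were called in opposite directions. These were positions 117 (log2 fold change -0.76) and 118 (0.95), and positions 590 (-0.12) and 591 (1.83). Such pairs were not counted in the background. Pearson's r of log2 fold changes between successive tested members was 0.18 over 94 pairs, against 0.25 over 11046 successive pairs outside the stretches. Successive transcripts share libraries and can share a gene, so both values are descriptions.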
